A study of Rattus norvegicus with 8 samples.

Results

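The genes described here serve the folding, quality control and export of proteins in the endoplasmic reticulum, and their RNA was measured in the rat ventral prostate. The list holds 47 genes: chaperones, disulphide isomerases, genes of the unfolded protein response and of the degradation of misfolded protein, and subunits of the translocon and of the glycosylation machinery. Every probe set annotated to exactly 1 of these symbols was taken. Of the 47 genes, 45 were on the array, with 63 probe sets out of 31042. A filter on dim probe sets left 21729 for testing, among them 61 of the 63, which covered all 45 genes. The genes not on the array were Ern1 and Derl3, and the filter removed 1 dim probe set each of Ero1b and Sec61a1, genes that other probe sets measured.

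RNA was hybridised to 8 Affymetrix arrays, 2 in each of 4 groups of Sprague-Dawley males of the third generation (F3). The groups were vinclozolin lineage prostate epithelium and control lineage prostate epithelium at 45 days of age, and vinclozolin lineage whole ventral prostate and control lineage whole ventral prostate at 180 days. Vinclozolin is a fungicide that opposes the androgen receptor. The founding females were injected into the abdominal cavity from day 8 to day 14 of pregnancy, and later generations were bred from their offspring. The treatment text of all 8 samples names only the vehicle, DMSO, also where the title says vinclozolin, so the lineage of each sample rests on its title. RNA of 11 animals was pooled for each epithelium sample, and that of several animals, not counted in the labels, for each whole prostate sample. The labels do not say whether the pools of a group share animals, so the p-values measure the spread between pools, which may be technical. Age and preparation changed together between epithelium and whole prostate and cannot be told apart.

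The ventral prostate is a secretory gland whose luminal cells make large amounts of protein for the seminal fluid. A protein bound for secretion enters the endoplasmic reticulum through the Sec61 translocon, loses its signal peptide, receives N-linked sugars from the oligosaccharyltransferase, and is folded by chaperones such as BiP (Hspa5), by the calnexin and calreticulin cycle and by disulphide isomerases. When unfolded protein builds up, the sensors IRE1 (Ern1), PERK (Eif2ak3) and ATF6 act through Xbp1, Atf4 and the cleaved form of ATF6, which raise the chaperones and the degradation machinery. ATF6 and the spliced form of XBP1 act at short promoter elements, of which the endoplasmic reticulum stress response element (ERSE) is bound together with the CCAAT factor NF-Y.

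Promoter sequences were searched for these elements, which only some genes of the list held. RefSeq (build GRCr8) gave the 250 bases before the annotated start for 40 of the 47 genes; Atf6, Derl1, Ern1, Manf, Pdia3, Pdia6 and Sec61a1 had no entry. Both strands were searched for ERSE, which is CCAAT and CCACG with 9 bases of any kind between them. The shorter ERSE-II is ATTGG and CCACG with 1 base between them. ERSE matched in 9 of the 40 genes (22.5%), against 22 of all 33469 windows of this length (0.0657%). ERSE-II matched in 2 of the 40 genes (5.0%), against 14 of all windows (0.0418%). The list was chosen to hold genes of the unfolded protein response, which acts at these elements. A share above that of all windows was therefore in part set by the choice. The share of the list counts genes and that of all counts windows. The matches are printed below in the direction of the element, with its fixed bases in capitals; those of Creld2, Ero1b, Calr and Derl3, the second of Hsp90b1 and both of Hyou1 lie on the strand opposite to the gene.
Hspa5: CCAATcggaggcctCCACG
Hsp90b1 first: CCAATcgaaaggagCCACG
Hsp90b1 second: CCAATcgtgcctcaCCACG
Creld2: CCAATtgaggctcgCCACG
Canx: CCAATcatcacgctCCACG
Xbp1: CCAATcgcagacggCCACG
Dnajc3: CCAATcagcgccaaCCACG
Ero1b: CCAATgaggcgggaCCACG
Calr: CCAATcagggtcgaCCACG
Derl3: CCAATaaggaagtcCCACG
Hyou1 first: ATTGGcCCACG
Hyou1 second: ATTGGgCCACG
Herpud1: ATTGGgCCACG

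The first Hyou1 match overlaps another element, the unfolded protein response element (UPRE, written TGACGTGG), which was found in no other gene of the list (2.5% of 40) and in 0.52% of all windows. The parts of ERSE were common on their own: CCAAT occurred in 29 of 40 genes (72.5%), against 34.0% of all windows, and CCACG in 30 of 40 (75.0%), against 27.2%. The whole windows of 4 genes are printed for comparison, since the array results turn on Hyou1, Pdia4 and Pdia5, and Hspa5 is the classical carrier of the element. Capitals mark each CCAAT and CCACG on either strand, so that the reverse strand reads ATTGG and CGTGG. The Hspa5 window is chr3:38452766-38453015 on the plus strand, that of Hyou1 is chr8:53602632-53602881 on the plus strand, that of Pdia4 is chr4:78153192-78153441 on the minus strand and that of Pdia5 is chr11:78777258-78777507 on the plus strand, all in GRCr8 and read 5′ to 3′ towards the gene.
Hspa5: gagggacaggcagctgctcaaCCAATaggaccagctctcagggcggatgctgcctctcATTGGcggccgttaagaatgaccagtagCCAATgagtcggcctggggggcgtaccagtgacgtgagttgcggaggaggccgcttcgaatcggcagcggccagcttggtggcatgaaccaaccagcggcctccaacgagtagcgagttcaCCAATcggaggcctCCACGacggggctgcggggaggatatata
Hyou1: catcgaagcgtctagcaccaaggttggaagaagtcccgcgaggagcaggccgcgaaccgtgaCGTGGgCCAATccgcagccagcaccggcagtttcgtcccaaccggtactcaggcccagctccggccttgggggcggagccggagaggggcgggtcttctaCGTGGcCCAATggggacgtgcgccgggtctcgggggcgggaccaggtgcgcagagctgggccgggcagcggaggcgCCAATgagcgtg
Pdia4: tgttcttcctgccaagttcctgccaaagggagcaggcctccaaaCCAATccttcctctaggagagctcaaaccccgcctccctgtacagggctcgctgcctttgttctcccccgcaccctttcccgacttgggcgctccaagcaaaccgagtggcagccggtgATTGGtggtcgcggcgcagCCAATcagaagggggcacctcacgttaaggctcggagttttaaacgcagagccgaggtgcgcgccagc
Pdia5: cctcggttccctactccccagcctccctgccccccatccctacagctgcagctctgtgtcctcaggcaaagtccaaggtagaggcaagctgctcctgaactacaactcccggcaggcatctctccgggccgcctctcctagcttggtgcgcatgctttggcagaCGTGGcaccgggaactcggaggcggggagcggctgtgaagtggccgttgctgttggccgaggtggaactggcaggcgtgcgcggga
Hspa5 holds its element 43 to 25 bases before the start. Hyou1 holds an ERSE-II match at 188 to 178 bases and another at 88 to 78 bases before the start that this window precedes. RefSeq lists a second Hyou1 start downstream, whose own window (chr8:53602822-53603071) holds 1 CCAAT and neither ERSE-II nor UPRE. Pdia4 holds CCAAT 3 times and no CCACG, and Pdia5 holds 1 CCACG and no CCAAT, so neither window has a match to the elements as spelled here. A match in a sequence is a description and not a site shown to be bound.

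**Figure D1:**
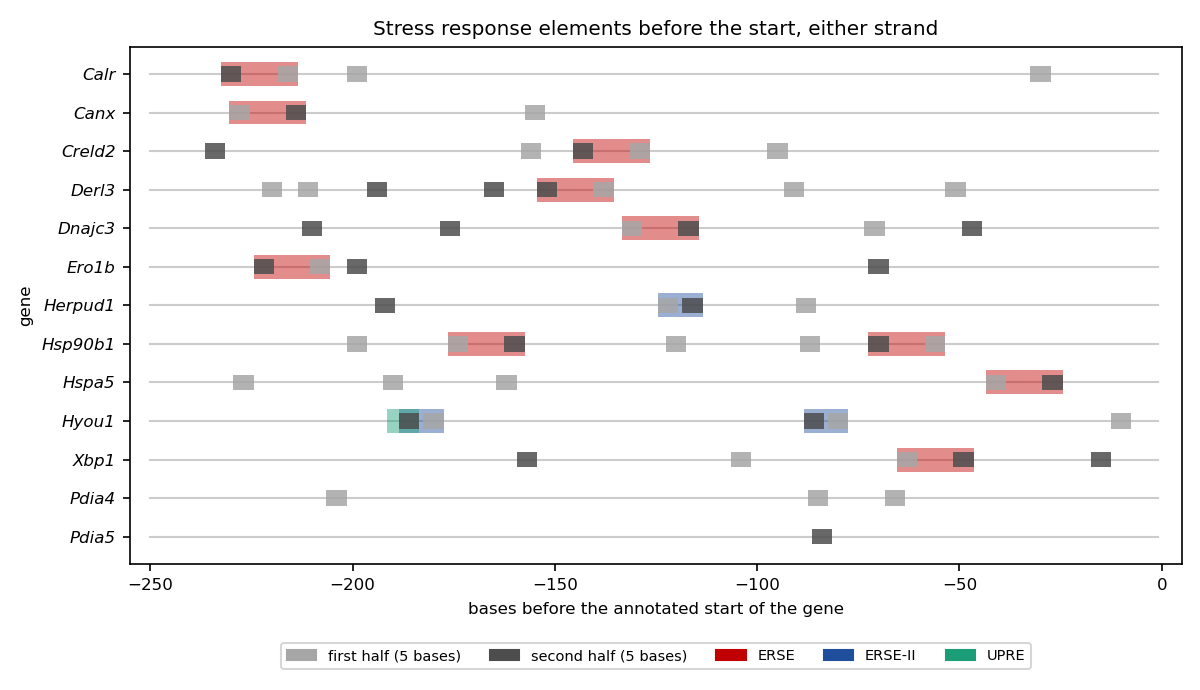
Positions of the elements on either strand in the 250 bases before the annotated start, on an axis in bases, for the 11 genes with an ERSE, ERSE-II or UPRE match and for Pdia4 and Pdia5. Red boxes are ERSE, blue ERSE-II and green UPRE, grey boxes are the parts CCAAT and CCACG on their own, and the elements lie at no common distance: the ERSE of Hspa5 ends 25 bases before the start and that of Calr begins 232 bases before it.

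The values below are normalised log2 levels, meaning log2 of the deposited intensity plus 16, which was then quantile normalised. Log2 changes are differences between group means of these levels with their standard error (SE, n = 2 arrays a group). A probe set was called where limma gave an adjusted p under 0.05 across all 21729. The genes were bright and close between arrays: the median SD between the 2 arrays of a group was 0.05 to 0.06 over the 61 probe sets and 0.10 to 0.14 over all probe sets. Their mean intensities ran between 22.2 for 1 probe set of Atf6 and 8760.0 for Hspa5, and levels of different probe sets are not compared. The luminal markers Krt8, Krt18 and Epcam and the secretory gene Pbsn were bright on all 8 arrays (between 1599 and 8028 units). Foxa1, of the same luminal list, was dim on all 8, at 65.8 to 99.1 units. The arrays labelled epithelium also carried more RNA of smooth muscle genes and of most fibroblast genes than whole prostate. Acta2, a smooth muscle actin, read 1744 and 1802 units on the vinclozolin epithelium arrays and 2117 and 1789 on the control epithelium arrays. On whole prostate arrays it read 183 and 173 in the vinclozolin lineage and 119 and 165 in the control lineage. Over 9 fibroblast genes the summed intensity was 9659 to 10006 units on the vinclozolin and 9805 to 10364 on the control epithelium arrays. It was 3541 to 3620.5 on the vinclozolin and 3893 to 3906 on the control whole prostate arrays. In the vinclozolin lineage 8 of the 9 were higher in epithelium and 1 lower, and in the control lineage 7 and 2. The fat cell marker Adipoq ran the other way, at 12.0 to 33.5 units in epithelium against 280 to 326 units in whole prostate. In RNA of mixed tissue, fewer cells of a type and less RNA per cell cannot be told apart.

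In whole ventral prostate at 180 days, Hyou1, a large chaperone of the Hsp70 family, rose in the vinclozolin lineage and Pdia5, a disulphide isomerase, fell to 177 and 214 intensity units, against 958 and 897 in the control lineage. These were 2 of the 61 probe sets called (3.28%), against 379 of all 21729 (1.74%), with 0.819% of all called higher and 0.925% called lower. Among the brightest 10% of probe sets, 35 of 2172 were called higher and 38 lower. Most other genes lay a little higher without passing the test: 35 of 45 genes had a positive change, with a median of 0.16, against a median of -0.01 over all probe sets and 0.00 over the brightest 10% of them. The gene counts use the brightest probe set of each gene, and of the 11 genes with several, only 4 had the same sign on all of them. Counted by probe set, 46 of 61 were positive (75.4%), against 48.7% of all, and 17 passed at an unadjusted p under 0.05 (27.9%), against 18.7% of all. On 40 of the 61 probe sets (65.6%) both vinclozolin arrays lay above both control arrays, against 26.1% of all probe sets, and on 9 (14.8%) both lay below, against 27.8%. The median was 0.22 after median centring, against -0.05 over all probe sets and 0.01 over the brightest 10%. On the values as deposited it was 0.27, against 0.00 over all probe sets and 0.06 over the brightest 10%. The 3′ to 5′ ratio of beta-actin, a sign of RNA quality, also differed between these lineages, at 3.37 and 3.14 on the vinclozolin arrays and 3.74 and 3.98 on the control arrays. The same ratio of Gapdh overlapped, at 1.4 and 1.35 on the vinclozolin arrays and 1.47 and 1.39 on the control arrays. The part of RNA quality in the shift was not tested. A prior on the variance that follows the level (limma's trended robust prior) moved the calls to 17 probe sets higher and 2 lower, or 27.9% and 3.28%, against 4.04% and 4.31% of all probe sets. The call of Hyou1 was lost without any 1 of the 8 arrays (adjusted p between 0.073 and 0.24), and that of Pdia5 was lost without 1 or the other control whole prostate array (adjusted p up to 0.0536).

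In prostate epithelium at 45 days, no probe set of the list was called, against 2 of all 21729 (0.0092%), of which 1 was called higher and 1 lower (0.0046% each). The genes again lay mostly a little higher in the vinclozolin lineage, with 37 of 45 positive and a median of 0.11, against -0.00 over all probe sets and 0.01 over the brightest 10%. Among the 11 genes with several probe sets, 8 had the same sign on all of them. Counted by probe set, 49 of 61 were positive (80.3%), against 49.7% of all. Both vinclozolin arrays lay above both control arrays on 33 probe sets (54.1%, against 19.7% of all) and below them on 7 (11.5%, against 19.7%). The median was 0.04 after median centring, against -0.02 over all probe sets and -0.04 over the brightest 10%. On the values as deposited it was 0.07, against 0.01 over all probe sets and -0.01 over the brightest 10%. The stress signalling genes stood on the other side, with 5 of 6 genes negative and a median of -0.27. At an unadjusted p under 0.05, 10 of the 61 probe sets passed (16.4%), against 11.4% of all. The trended robust prior called Sel1l, Dnajc3 and 1 probe set of Edem1 higher (4.92%, against 0.534% of all) and Pdia5 lower (1.64%, against 0.41%).

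Across the 2 tissues, 29 of the 45 genes (64.4%) were positive in both lineage comparisons, which use separate arrays, against 26.8% of all genes, and 2 were negative in both. The difference of the lineage effects, epithelium minus whole prostate, was called on none of the 61 probe sets, against 63 of all 21729 (0.29%), and 10 of 61 (16.4%) passed at an unadjusted p under 0.05, against 13.5% of all. Among these 10, Pdia5 had the lowest p, with a difference of 1.45 ± 0.22 (adjusted p = 0.071). Trib3 followed at -0.74 ± 0.20 (adjusted p = 0.23) and Ddit3 at -0.72 ± 0.20 (adjusted p = 0.233). The difference was positive on 24 of 61 probe sets (39.3%), against 50.9% of all. Over all 8 arrays, 24 of the 45 genes had their highest group mean in vinclozolin epithelium and 25 had their lowest in control whole prostate. The lowest arrays of the list were the 2 control whole prostate arrays, with median deviations of -0.15 and -0.14 (log2) from each gene's own mean, against 0.10 and 0.12 on the 2 vinclozolin epithelium arrays. The order of the group means and these deviations were not taken over all genes, so they describe the list without a background.

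**Figure D2:**
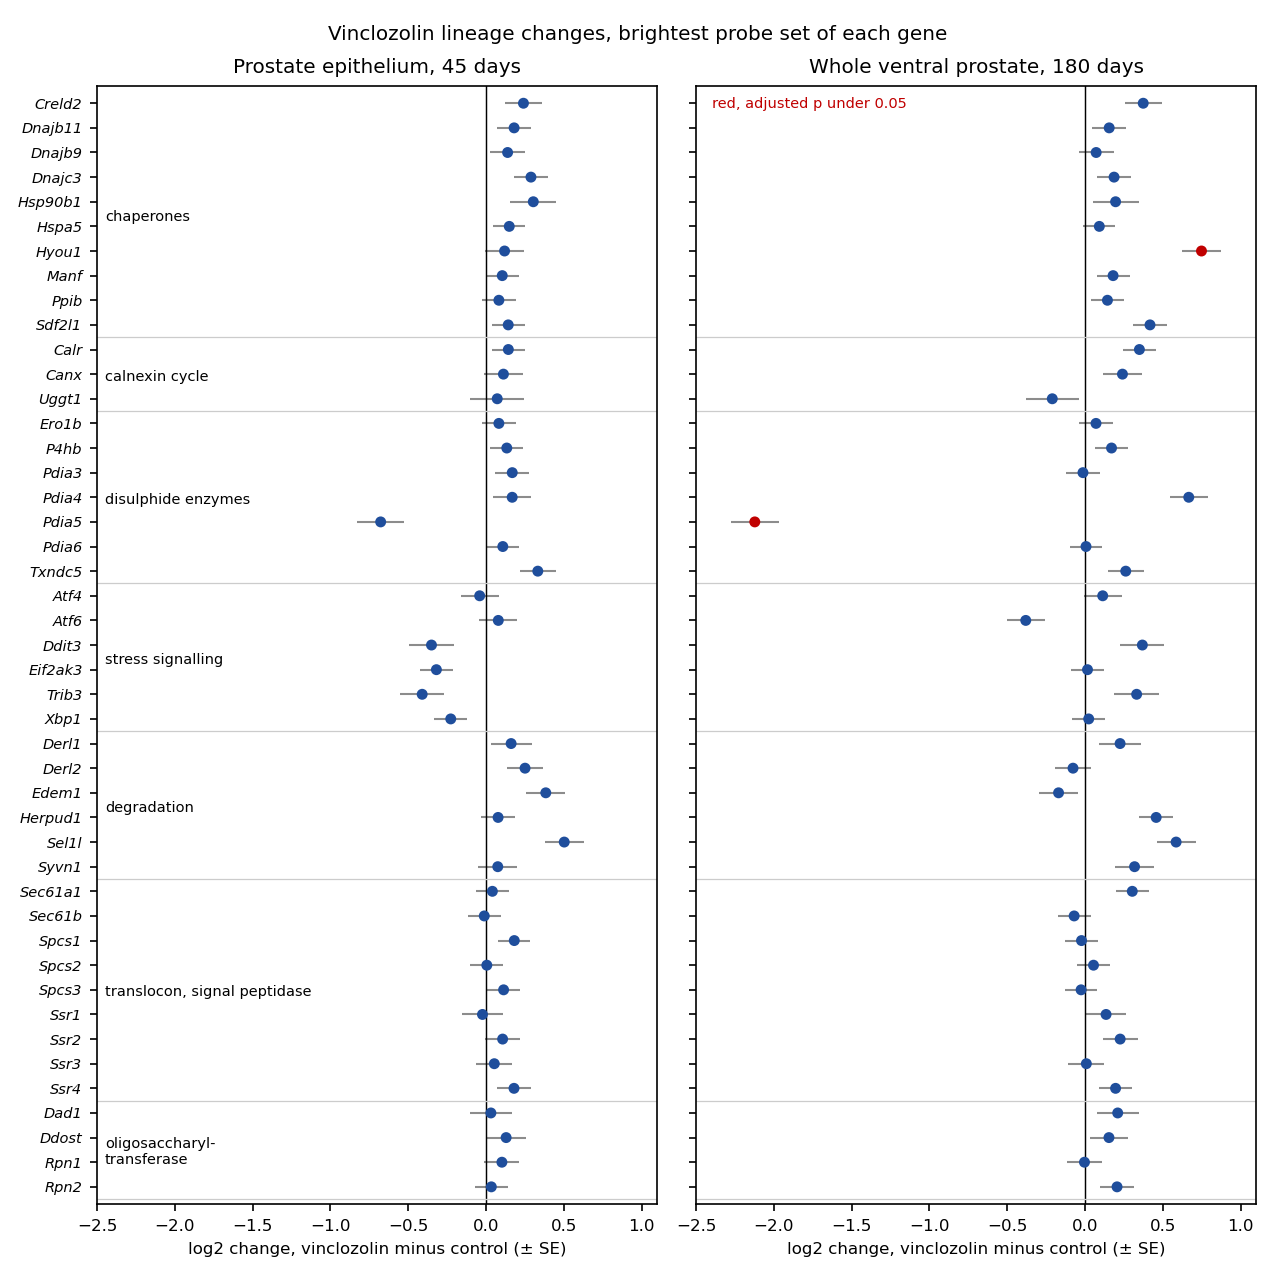
Log2 change, vinclozolin minus control, with its SE, for the brightest probe set of each of the 45 genes, by role, in epithelium on the left and in whole prostate on the right. Most points sit slightly right of 0, Hyou1 (0.75) and Pdia5 (-2.12) are called in whole prostate, and the stress signalling genes Ddit3, Eif2ak3, Trib3 and Xbp1 sit left of 0 in epithelium.

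**Figure D3:**
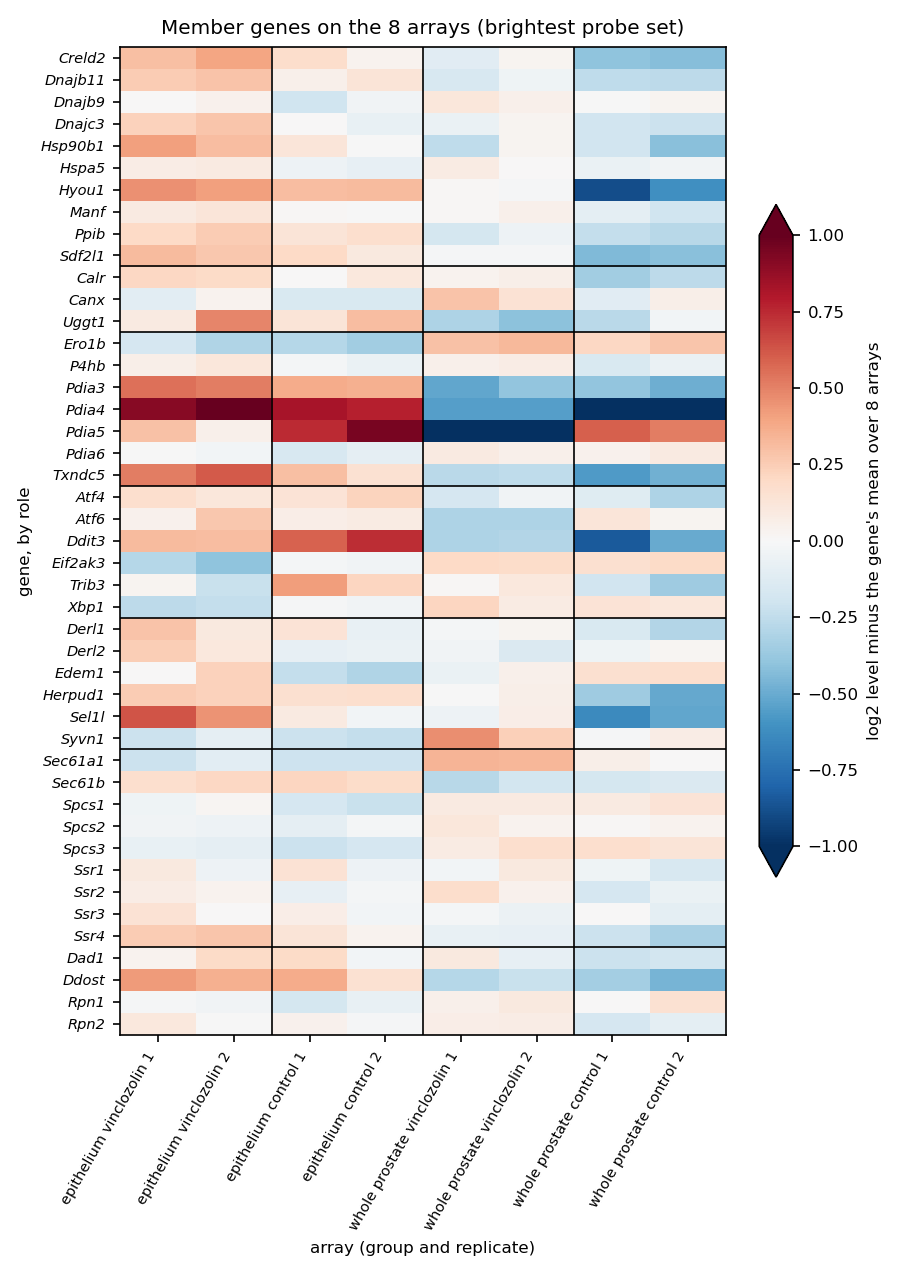
Log2 level of each gene on each of the 8 arrays minus the mean of that gene over the arrays, brightest probe set, with colours held at -1 and 1. The 2 control whole prostate arrays on the right are mostly blue, and Pdia5 is darkest blue on the 2 vinclozolin whole prostate arrays.

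Among the chaperones, all 10 genes were positive in both lineage comparisons, with medians of 0.15 in epithelium and 0.18 in whole prostate, and 1 of their 11 probe sets was called, in whole prostate. Both vinclozolin arrays lay above both control arrays on 11 of the 11 probe sets in epithelium, against 19.7% of all probe sets, and on 10 of 11 in whole prostate, against 26.1% of all. Hyou1 is a nucleotide exchange factor of BiP that is induced under low oxygen. On its brighter probe set it had normalised log2 levels of 10.73 and 10.68 on the vinclozolin epithelium arrays and 10.58 and 10.59 on the control epithelium arrays. Whole prostate arrays read 10.28 and 10.26 in the vinclozolin lineage and 9.38 and 9.66 in the control lineage. Every vinclozolin array lay above every control array of the same tissue, with the widest gap in whole prostate. The change was 0.75 ± 0.13 (adjusted p = 0.0467) in whole prostate and 0.12 ± 0.13 (adjusted p = 0.78) in epithelium, and the difference between them was -0.63 ± 0.18 (adjusted p = 0.239). Its dimmer probe set had 8.92 and 8.51 on the vinclozolin epithelium arrays and 8.21 and 8.32 on the control epithelium arrays. The whole prostate levels were 6.97 and 7.16 on the vinclozolin arrays and 6.48 and 6.62 on the control arrays. Here too the vinclozolin arrays were higher in each tissue, by 0.45 ± 0.17 (adjusted p = 0.397) in epithelium and 0.51 ± 0.17 (adjusted p = 0.182) in whole prostate. Hyou1 is the gene with 2 ERSE-II matches and the UPRE printed above.

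Hspa5, the central chaperone BiP, is shown although the naming rule did not select it, and had 13.16 and 13.18 on the vinclozolin epithelium arrays and 13.04 and 13.01 on the control epithelium arrays. The vinclozolin whole prostate arrays had 13.17 and 13.09 and the control ones 13.02 and 13.06. Its arrays lay close together throughout, with vinclozolin above control in each tissue, by 0.15 ± 0.10 in epithelium and 0.09 ± 0.10 in whole prostate, neither of which passed the test. Sdf2l1, a partner of BiP and its cochaperones, had 11.95 and 11.90 on the vinclozolin epithelium arrays and 11.83 and 11.73 on the control epithelium arrays. On whole prostate arrays it stood at 11.62 and 11.62 in the vinclozolin lineage and 11.19 and 11.22 in the control lineage. The vinclozolin arrays lay above the control arrays in each tissue, and the changes of 0.14 ± 0.11 (adjusted p = 0.666) in epithelium and 0.42 ± 0.11 (adjusted p = 0.109) in whole prostate did not pass. Creld2, a stress-induced secreted factor with an ERSE match, had 12.22 and 12.31 on the vinclozolin epithelium arrays and 12.10 and 11.96 on the control epithelium arrays. Whole prostate gave 11.81 and 11.95 in the vinclozolin lineage and 11.52 and 11.50 in the control lineage. The order was the same, with changes of 0.24 ± 0.12 (adjusted p = 0.499) in epithelium and 0.37 ± 0.12 (adjusted p = 0.168) in whole prostate.

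Dnajc3, the cochaperone p58IPK that binds BiP and restrains PERK, had 11.92 and 11.97 on the vinclozolin epithelium arrays and 11.70 and 11.62 on the control epithelium arrays. For whole prostate the levels were 11.63 and 11.72 on vinclozolin and 11.50 and 11.48 on control arrays. Its vinclozolin arrays were higher in each tissue, with changes of 0.29 ± 0.11 (adjusted p = 0.396) in epithelium and 0.19 ± 0.11 (adjusted p = 0.406) in whole prostate. Dnajb11, the cochaperone ERdj3, had 10.90 and 10.94 on the vinclozolin epithelium arrays and 10.70 and 10.78 on the control epithelium arrays. Its whole prostate values were 10.49 and 10.60 on the vinclozolin arrays and 10.40 and 10.39 on the control arrays. None of the 4 groups overlapped. The changes were 0.18 ± 0.11 in epithelium and 0.16 ± 0.11 in whole prostate. Ppib, the prolyl isomerase cyclophilin B, had 12.35 and 12.41 on the vinclozolin epithelium arrays and 12.28 and 12.32 on the control epithelium arrays. Whole prostate arrays read 11.98 and 12.10 in the vinclozolin lineage and 11.91 and 11.88 in the control lineage. Its lineage changes of 0.08 ± 0.11 in epithelium and 0.14 ± 0.11 in whole prostate were smaller than the step between epithelium and whole prostate. The other chaperones were Hsp90b1 (GRP94), Dnajb9 (ERdj4) and Manf, whose changes ran between 0.10 and 0.30 in epithelium and between 0.07 and 0.20 in whole prostate.

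In the calnexin cycle, which holds newly glycosylated proteins until they are folded, 3 of 3 genes were positive in epithelium (median 0.11) and 2 of 3 in whole prostate (median 0.24), and no probe set was called in either. Calr, the lumenal lectin chaperone calreticulin, had 12.75 and 12.74 on the vinclozolin epithelium arrays and 12.55 and 12.65 on the control epithelium arrays. The whole prostate levels were 12.58 and 12.60 on the vinclozolin arrays and 12.20 and 12.29 on the control arrays. Vinclozolin arrays lay above control arrays in each tissue, and the changes were 0.14 ± 0.11 (adjusted p = 0.669) in epithelium and 0.35 ± 0.11 (adjusted p = 0.161) in whole prostate. On its brightest probe set Canx, the membrane-bound calnexin, had 11.41 and 11.55 on the vinclozolin epithelium arrays and 11.36 and 11.36 on the control epithelium arrays. The vinclozolin whole prostate arrays had 11.80 and 11.65 and the control ones 11.40 and 11.57. All 3 Canx probe sets were positive in whole prostate, at 0.24, 0.22 and 0.53 ± 0.13, the last with an adjusted p of 0.108, and positive in epithelium, at 0.11, 0.10 and 0.23. Uggt1, the glucosyltransferase that returns unfolded glycoproteins to the cycle, had 7.54 and 7.94 on the vinclozolin epithelium arrays and 7.57 and 7.75 on the control epithelium arrays. On whole prostate arrays it stood at 7.14 and 7.04 in the vinclozolin lineage and 7.18 and 7.42 in the control lineage. Its vinclozolin arrays overlapped the control arrays in epithelium and lay below them in whole prostate, with changes of 0.07 ± 0.17 in epithelium and -0.21 ± 0.17 in whole prostate.

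The disulphide enzymes held the largest lineage change of the list, that of Pdia5 in whole prostate. Pdia5, an isomerase of the family, had deposited intensities of 718 and 614 on the vinclozolin epithelium arrays and 1005 and 1197 on the control epithelium arrays. Whole prostate gave 177 and 214 in the vinclozolin lineage and 958 and 897 in the control lineage. The 2 vinclozolin whole prostate arrays were lowest by a wide gap, and in epithelium too both vinclozolin arrays lay below both control arrays. Its normalised log2 levels were 9.58 and 9.34 on the vinclozolin epithelium arrays and 10.04 and 10.24 on the control epithelium arrays. For whole prostate the levels were 7.59 and 7.85 on vinclozolin and 9.89 and 9.80 on control arrays. In whole prostate it fell by 2.12 ± 0.15 on the log2 scale, and was 4.36-fold lower on this scale (adjusted p = 0.00297). In epithelium the change of -0.68 ± 0.15 (adjusted p = 0.255) did not pass the test. The array has 1 probe set for Pdia5, so no second probe set bears on its value.

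Pdia4 (ERp72), an isomerase with several thioredoxin domains, lay on the other side, with 9.83 and 9.95 on the vinclozolin epithelium arrays and 9.75 and 9.70 on the control epithelium arrays. Its whole prostate values were 8.37 and 8.38 on the vinclozolin arrays and 7.81 and 7.60 on the control arrays. Vinclozolin was above control in each tissue, the whole prostate arrays were far below the epithelium arrays, and no groups overlapped. The lineage change was 0.17 ± 0.12 (adjusted p = 0.66) in epithelium and 0.67 ± 0.12 (adjusted p = 0.0551) in whole prostate, just outside the threshold. Txndc5, a thioredoxin domain isomerase, had 10.82 and 10.91 on the vinclozolin epithelium arrays and 10.60 and 10.46 on the control epithelium arrays. Whole prostate arrays read 10.03 and 10.05 in the vinclozolin lineage and 9.74 and 9.82 in the control lineage. Its 4 groups did not overlap either, with changes of 0.33 ± 0.11 (adjusted p = 0.366) in epithelium and 0.26 ± 0.11 (adjusted p = 0.286) in whole prostate.

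On its brighter probe set Pdia3 (ERp57), the isomerase that works with calnexin and calreticulin, had 12.96 and 12.92 on the vinclozolin epithelium arrays and 12.78 and 12.76 on the control epithelium arrays. The whole prostate levels were 11.88 and 12.01 on the vinclozolin arrays and 12.01 and 11.92 on the control arrays. Vinclozolin lay above control in epithelium, by 0.17 ± 0.11, and the lineages overlapped in whole prostate, at -0.01 ± 0.11. Ero1b, an oxidase that recharges the isomerases, had 9.84 and 9.70 on the vinclozolin epithelium arrays and 9.72 and 9.65 on the control epithelium arrays. The vinclozolin whole prostate arrays had 10.30 and 10.33 and the control ones 10.21 and 10.28. Its lineages lay close together in both tissues, at 0.08 ± 0.11 in epithelium and 0.07 ± 0.11 in whole prostate, and its epithelium arrays lay below its whole prostate arrays in each lineage. P4hb (protein disulphide isomerase) and Pdia6 differed by 0.13 ± 0.11 and 0.11 ± 0.10 in epithelium and by 0.17 ± 0.11 and 0.01 ± 0.10 in whole prostate. Over the 7 genes, 6 were positive in epithelium (median 0.13) and 5 in whole prostate (median 0.07).

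**Figure D4:**
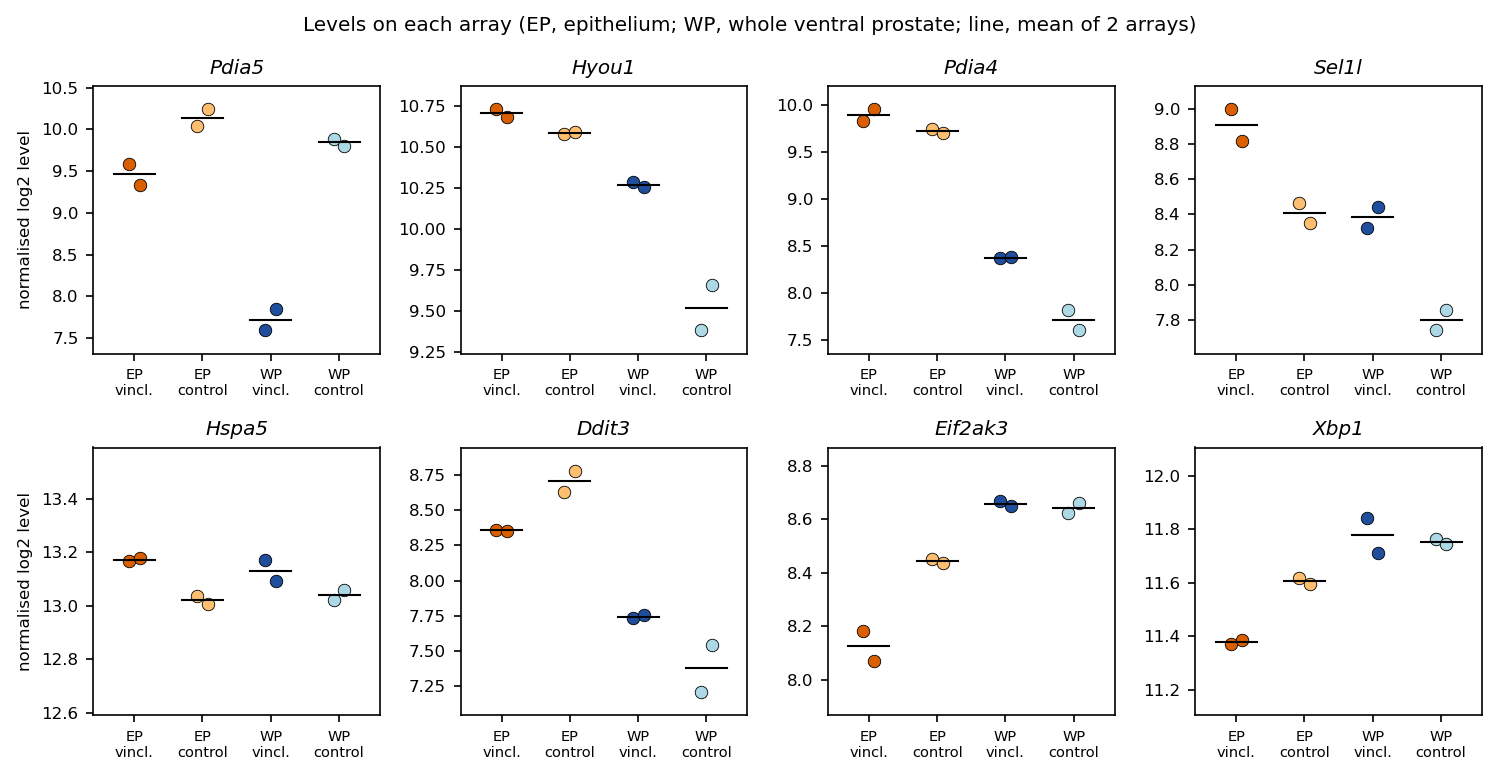
Normalised log2 level of 8 genes on each array, with the mean of the 2 arrays of a group as a line; the vertical axes differ between genes. Pdia5 is lowest on the vinclozolin whole prostate arrays, Hyou1, Pdia4 and Sel1l are lowest on the control whole prostate arrays, and Ddit3, Eif2ak3 and Xbp1 are lower on vinclozolin than on control epithelium arrays.

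The stress signalling genes, which sense unfolded protein and carry the signal to the nucleus, were the only role group with more negative than positive genes in a lineage comparison, and none of their 9 probe sets was called in either. In epithelium 5 of 6 genes were negative (median -0.27) and in whole prostate 5 of 6 were positive (median 0.07). On 5 of the 9 probe sets both vinclozolin epithelium arrays lay below both control epithelium arrays, against 19.7% of all probe sets. Ddit3 (CHOP), a factor induced by PERK signalling and linked to cell death, had 8.36 and 8.35 on the vinclozolin epithelium arrays and 8.63 and 8.78 on the control epithelium arrays. On whole prostate arrays it stood at 7.74 and 7.75 in the vinclozolin lineage and 7.21 and 7.54 in the control lineage. The vinclozolin arrays were below the control arrays in epithelium and above them in whole prostate, with changes of -0.35 ± 0.14 (adjusted p = 0.429) in epithelium and 0.37 ± 0.14 (adjusted p = 0.236) in whole prostate. Eif2ak3 (PERK), the kinase that slows translation, had 8.18 and 8.07 on the vinclozolin epithelium arrays and 8.45 and 8.43 on the control epithelium arrays. Whole prostate gave 8.67 and 8.65 in the vinclozolin lineage and 8.62 and 8.66 in the control lineage. It was lower on the vinclozolin arrays in epithelium, at -0.32 ± 0.11 (adjusted p = 0.357), and its lineages overlapped in whole prostate, at 0.02 ± 0.11.

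Xbp1, whose spliced form drives chaperone and degradation genes and whose promoter has an ERSE match, had 11.37 and 11.39 on the vinclozolin epithelium arrays and 11.62 and 11.59 on the control epithelium arrays. For whole prostate the levels were 11.84 and 11.71 on vinclozolin and 11.76 and 11.74 on control arrays. The vinclozolin epithelium arrays were the lowest pair, at -0.23 ± 0.11 (adjusted p = 0.489) against control, and whole prostate showed 0.02 ± 0.11. No source used here says which splice form the probe set detects. On the brightest of 3 probe sets Trib3, a pseudokinase induced by ATF4 and CHOP, had 6.59 and 6.34 on the vinclozolin epithelium arrays and 6.97 and 6.77 on the control epithelium arrays. Its whole prostate values were 6.57 and 6.66 on the vinclozolin arrays and 6.36 and 6.20 on the control arrays. All 3 were negative in epithelium, at -0.47, -0.41 and -0.17, and in whole prostate they were -0.14, 0.33 and 0.35. On its brighter probe set Atf6, the sensor that is cut in the Golgi, had 8.60 and 8.83 on the vinclozolin epithelium arrays and 8.63 and 8.64 on the control epithelium arrays. Whole prostate arrays read 8.25 and 8.25 in the vinclozolin lineage and 8.69 and 8.59 in the control lineage. In whole prostate its vinclozolin arrays lay below the control arrays, at -0.38 ± 0.12 (adjusted p = 0.175), while epithelium showed 0.08 ± 0.12. The second Atf6 probe set was dim, with intensities of 36.6 and 40.0 on the vinclozolin epithelium arrays and 38.0 and 34.0 on the control epithelium arrays. Its intensities were 5.4 and 4.9 on the vinclozolin whole prostate arrays and 8.9 and 9.9 on the control whole prostate arrays, all under the pseudocount, so no lineage difference is given there. Atf4, the translated target of PERK signalling, differed by -0.04 ± 0.12 in epithelium and 0.11 ± 0.12 in whole prostate.

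The degradation genes, which pull misfolded protein back to the cytosol, were positive in epithelium for 6 of 6 genes (median 0.21) and in whole prostate for 4 of 6 (median 0.27), with none of 11 probe sets called. Sel1l, the adaptor of the membrane ubiquitin ligase, had 9.00 and 8.82 on the vinclozolin epithelium arrays and 8.47 and 8.35 on the control epithelium arrays. The whole prostate levels were 8.32 and 8.44 on the vinclozolin arrays and 7.74 and 7.86 on the control arrays. Vinclozolin lay above control in each tissue without overlap, by 0.50 ± 0.13 (adjusted p = 0.271) in epithelium and 0.59 ± 0.13 (adjusted p = 0.0768) in whole prostate. Syvn1 (HRD1), that ligase itself, had 9.59 and 9.72 on the vinclozolin epithelium arrays and 9.59 and 9.57 on the control epithelium arrays. The vinclozolin whole prostate arrays had 10.27 and 10.05 and the control ones 9.80 and 9.88. The changes were 0.08 ± 0.13 in epithelium, where the lineages overlapped, and 0.32 ± 0.13 (adjusted p = 0.245) in whole prostate, where they did not. Herpud1, a short-lived stabiliser of the ligase complex with an ERSE-II match, had 10.87 and 10.85 on the vinclozolin epithelium arrays and 10.77 and 10.78 on the control epithelium arrays. On whole prostate arrays it stood at 10.61 and 10.67 in the vinclozolin lineage and 10.26 and 10.10 in the control lineage. The 2 control whole prostate arrays were the lowest, and the changes were 0.08 ± 0.11 in epithelium and 0.46 ± 0.11 (adjusted p = 0.0977) in whole prostate.

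Edem1, a lectin that hands glycoproteins to degradation, had 3 probe sets that disagreed in whole prostate. The brightest had 10.63 and 10.86 on the vinclozolin epithelium arrays and 10.39 and 10.33 on the control epithelium arrays. Whole prostate gave 10.57 and 10.68 in the vinclozolin lineage and 10.79 and 10.80 in the control lineage. Its changes were 0.38 ± 0.12 (adjusted p = 0.348) in epithelium and -0.17 ± 0.12 in whole prostate. The middle one had 9.71 and 9.81 on the vinclozolin epithelium arrays and 9.34 and 9.53 on the control epithelium arrays. For whole prostate the levels were 8.75 and 8.70 on vinclozolin and 8.05 and 8.17 on control arrays. It differed by 0.33 ± 0.12 (adjusted p = 0.401) in epithelium and 0.62 ± 0.12 (adjusted p = 0.065) in whole prostate. The dimmest differed by 0.23 ± 0.11 in epithelium and 0.14 ± 0.11 in whole prostate. In epithelium all 3 Edem1 probe sets were higher on both vinclozolin arrays than on both control arrays. The Derlin genes Derl1 and Derl2, candidate channels of the export, had 5 probe sets between -0.26 and 0.25 in epithelium and between -0.12 and 0.25 in whole prostate.

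The translocon, its associated complex and the signal peptidase showed small lineage changes, with 7 of 9 genes positive in epithelium (median 0.05), 6 of 9 in whole prostate (median 0.05) and none of 13 probe sets called. On its brighter tested probe set Sec61a1, the channel subunit, had 11.26 and 11.37 on the vinclozolin epithelium arrays and 11.27 and 11.27 on the control epithelium arrays. Its whole prostate values were 11.81 and 11.81 on the vinclozolin arrays and 11.53 and 11.48 on the control arrays. Its lineages overlapped in epithelium and stood apart in whole prostate, at 0.04 ± 0.11 in epithelium and 0.30 ± 0.11 (adjusted p = 0.203) in whole prostate. The dimmer one had 9.86 and 9.83 on the vinclozolin epithelium arrays and 9.75 and 9.82 on the control epithelium arrays. Whole prostate arrays read 8.92 and 9.04 in the vinclozolin lineage and 8.27 and 8.47 in the control lineage. It differed by 0.06 ± 0.12 in epithelium and 0.61 ± 0.12 (adjusted p = 0.066) in whole prostate. Sec61b, a small channel subunit, had 12.21 and 12.25 on the vinclozolin epithelium arrays and 12.26 and 12.23 on the control epithelium arrays. The whole prostate levels were 11.77 and 11.86 on the vinclozolin arrays and 11.87 and 11.90 on the control arrays. The changes of -0.01 ± 0.11 in epithelium and -0.07 ± 0.11 in whole prostate did not pass the test.

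On its dimmer probe set Ssr1, a subunit of the translocon-associated protein complex, had 10.36 and 10.40 on the vinclozolin epithelium arrays and 10.34 and 10.37 on the control epithelium arrays. The vinclozolin whole prostate arrays had 9.66 and 9.77 and the control ones 9.92 and 9.85. The lineage changes were 0.02 ± 0.11 in epithelium and -0.17 ± 0.11 in whole prostate. Its brighter probe set differed by -0.02 ± 0.13 in epithelium and 0.14 ± 0.13 in whole prostate. The brightest probe set of Ssr3, another subunit, had 12.20 and 12.06 on the vinclozolin epithelium arrays and 12.12 and 12.03 on the control epithelium arrays. On whole prostate arrays it stood at 12.04 and 11.99 in the vinclozolin lineage and 12.06 and 11.96 in the control lineage. It differed by 0.05 ± 0.12 in epithelium and 0.01 ± 0.12 in whole prostate. The middle Ssr3 probe set had 11.03 and 10.89 on the vinclozolin epithelium arrays and 10.95 and 11.12 on the control epithelium arrays. Whole prostate gave 10.78 and 10.68 in the vinclozolin lineage and 10.97 and 10.96 in the control lineage. Its vinclozolin arrays lay below the control arrays in whole prostate, at -0.24 ± 0.12. The dimmest had 8.33 and 8.47 on the vinclozolin epithelium arrays and 8.40 and 8.06 on the control epithelium arrays. For whole prostate the levels were 6.82 and 6.65 on vinclozolin and 6.28 and 6.45 on control arrays, with the whole prostate arrays far below the epithelium arrays. Ssr2, Ssr4 and the signal peptidase subunits Spcs1, Spcs2 and Spcs3 differed by 0.01 to 0.18 in epithelium and by -0.03 to 0.23 in whole prostate.

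The oligosaccharyltransferase, which adds N-linked sugars, had 4 of 4 genes positive in epithelium (median 0.07) and 3 of 4 in whole prostate (median 0.18), with no call. Ddost, a subunit of its core, had 11.36 and 11.29 on the vinclozolin epithelium arrays and 11.30 and 11.08 on the control epithelium arrays. Its whole prostate values were 10.65 and 10.71 on the vinclozolin arrays and 10.59 and 10.46 on the control arrays. The changes were 0.13 ± 0.12 in epithelium and 0.15 ± 0.12 in whole prostate. Rpn1, Rpn2 and Dad1 differed by 0.03 to 0.10 in epithelium and by -0.00 to 0.21 in whole prostate. Over all roles, the 17 genes that the naming rule did not select had 20 probe sets. The rule takes every gene with a call, so by its terms none of these was called in any of the 5 comparisons. Of the 20 probe sets, 18 were positive in epithelium, against 49.7% of all, and 15 in whole prostate, against 48.7% of all. The rule also took the probe sets of lowest p in each direction, so these counts describe only the remainder.

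The promoter matches printed above were set beside these changes. The 10 tested genes with an ERSE or ERSE-II match had a median change of 0.13 in epithelium, where 9 were positive, and 0.22 in whole prostate, where all 10 were. The 29 tested genes with a window and no match had a median of 0.10 in epithelium, with 22 positive, and 0.14 in whole prostate, with 21 positive. This difference was not tested. In whole prostate the changes of single genes ran between 0.02 and 0.75 with a match and between -2.12 and 0.67 without.

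More of these genes were called between epithelium and whole prostate than between the lineages. Of the 61 probe sets 25 were called in the vinclozolin lineage (41.0%), 19 higher and 6 lower in epithelium, against 27.4% of all probe sets, of which 13.1% were called higher and 14.2% lower. In the control lineage 26 were called (42.6%), 23 higher and 3 lower, against 27.8% of all, with 12.9% higher and 15.0% lower. In the control lineage Pdia4, Ssr3, Hyou1, Sec61a1, Ddit3 and Edem1 were called higher in epithelium, each with a probe set more than 1 log2 unit higher, and 1 probe set each of Canx and Edem1 and that of Ero1b were called lower. The medians over the 45 genes were 0.15 in the vinclozolin lineage, against -0.07 over the brightest 10% of probe sets, and 0.17 in the control lineage, against -0.08 over the brightest 10% of probe sets. By probe set, 42 of 61 were positive in the vinclozolin lineage (68.9%, against 45.6% of all) and 43 in the control lineage (70.5%, against 45.4%). Both epithelium arrays lay above both whole prostate arrays on 37 probe sets in each lineage (60.7%, against 29.2% of all in each). They lay below them on 15 in the vinclozolin lineage (24.6%, against 36.2% of all) and on 17 in the control lineage (27.9%, against 37.4%). At an unadjusted p under 0.05, 32 passed in the vinclozolin lineage (52.5%, against 40.3% of all) and 35 in the control lineage (57.4%, against 40.1%). In both lineages, which use separate arrays, 14 probe sets were called higher (23.0%, against 8.73% of all) and 2 lower (3.28%, against 8.5% of all), with none called in opposite directions.

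The largest difference in the control lineage was that of Pdia4, which stood at 1.52 ± 0.12 (adjusted p = 0.000512) in the vinclozolin lineage and 2.02 ± 0.12 (adjusted p = 0.000188) in the control lineage. The dimmest Ssr3 probe set was higher in epithelium by 1.67 ± 0.16 (adjusted p = 0.000916) in the vinclozolin lineage and 1.87 ± 0.16 (adjusted p = 0.000627) in the control lineage. The dimmer Hyou1 probe set differed by 1.65 ± 0.17 (adjusted p = 0.00119) in the vinclozolin lineage and 1.71 ± 0.17 (adjusted p = 0.00102) in the control lineage, and the brighter one by 0.43 ± 0.13 (adjusted p = 0.0462) in the vinclozolin lineage and 1.06 ± 0.13 (adjusted p = 0.0021) in the control lineage. Pdia3, Txndc5 and Ddost, each above in epithelium on all arrays, differed by 0.99 ± 0.11, 0.82 ± 0.11 and 0.64 ± 0.12 in the vinclozolin lineage and by 0.81 ± 0.11, 0.75 ± 0.11 and 0.67 ± 0.12 in the control lineage. Pdia5 was the gene furthest from a shared value: its epithelium arrays were higher by 1.74 ± 0.15 (adjusted p = 0.000724) in the vinclozolin lineage, and in the control lineage the difference was 0.29 ± 0.15 (adjusted p = 0.205).

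Among the signalling genes Ddit3 was higher in epithelium by 0.61 ± 0.14 (adjusted p = 0.0219) in the vinclozolin lineage and 1.33 ± 0.14 (adjusted p = 0.00137) in the control lineage. None of the 3 Trib3 probe sets was called in the vinclozolin lineage, at 0.51, -0.15 and 0.48, and all were called higher in the control lineage, at 0.84, 0.59 and 1.00; the difference of these differences was not called. Eif2ak3 and Xbp1 were called lower in the vinclozolin lineage, at -0.53 ± 0.11 (adjusted p = 0.0132) and -0.40 ± 0.11 (adjusted p = 0.0353), against -0.20 ± 0.11 (adjusted p = 0.212) and -0.15 ± 0.11 (adjusted p = 0.348) in the control lineage. The dim Atf6 probe set was called higher in epithelium in both lineages, but all its whole prostate intensities were under the pseudocount, so the size of the difference is not measured: it was 0.49 with a pseudocount of 64 and 2.37 with one of 1 in the vinclozolin lineage, and 0.36 and 1.44 in the control lineage. Its brighter probe set differed by 0.46 ± 0.12 in the vinclozolin lineage and 0.00 ± 0.12 in the control lineage.

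Sel1l and the middle Edem1 probe set were called higher in both lineages, at 0.53 ± 0.13 and 1.04 ± 0.12 in the vinclozolin lineage and at 0.61 ± 0.13 and 1.33 ± 0.12 in the control lineage. Chaperones called in the control lineage and not in the vinclozolin lineage were Sdf2l1, Creld2 and Ppib. They stood at 0.30 ± 0.11, 0.39 ± 0.12 and 0.34 ± 0.11 in the vinclozolin lineage and at 0.58 ± 0.11, 0.52 ± 0.12 and 0.40 ± 0.11 in the control lineage, and no difference between the lineages was called for them. Herpud1, Calr and the dimmest Canx probe set (higher) and the brightest Edem1 probe set (lower) were the other such calls, beside Trib3. Dnajb11, Uggt1, the dimmest Edem1 probe set and the brighter Atf6 probe set were called higher in the vinclozolin lineage and not in the control lineage, and Syvn1 and the brighter Sec61a1 probe set were called lower there. Sec61b and the dimmer Ssr1 probe set were called higher in both, at 0.42 and 0.67 in the vinclozolin lineage and 0.36 and 0.47 in the control lineage. Ero1b was called lower in epithelium in both, at -0.54 ± 0.11 (adjusted p = 0.0143) in the vinclozolin lineage and -0.56 ± 0.11 (adjusted p = 0.013) in the control lineage. So was the middle Canx probe set, against the direction of its dimmest one. It stood at -0.65 ± 0.12 (limma, adjusted p = 0.0104) in the vinclozolin lineage and -0.53 ± 0.12 (adjusted p = 0.0204) in the control lineage.

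**Figure D5:**
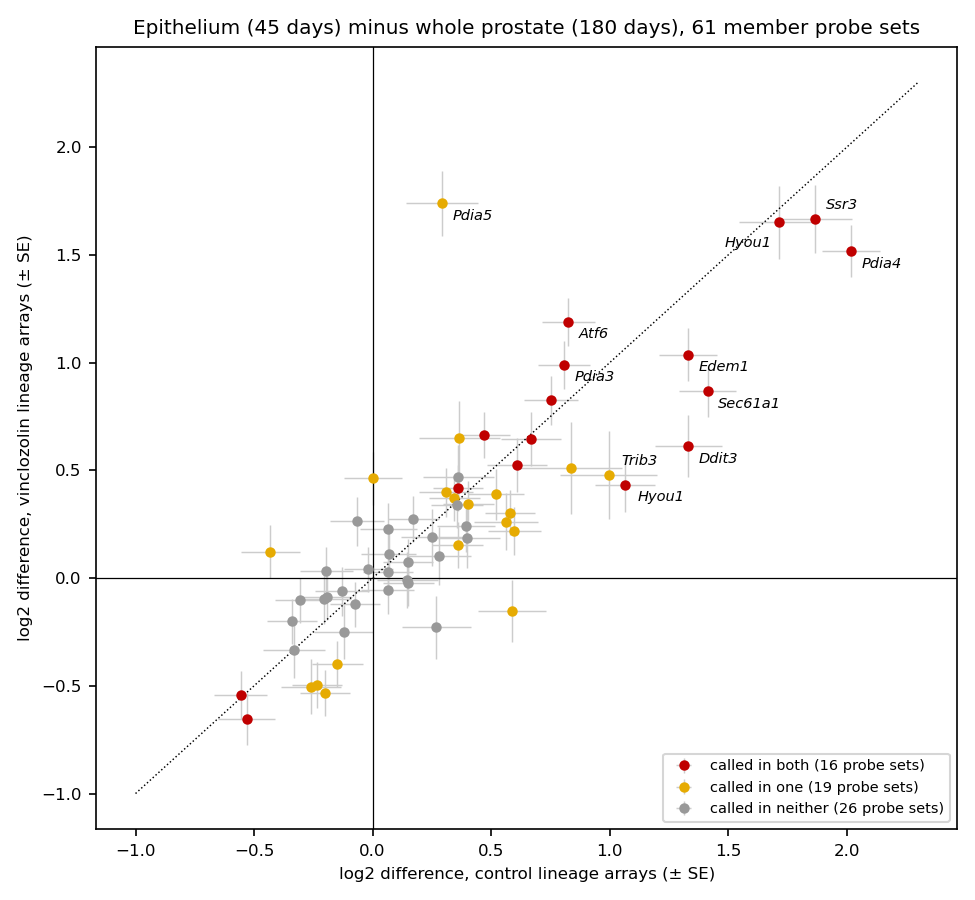
Log2 difference, epithelium minus whole prostate, in the vinclozolin lineage against that in the control lineage, for the 61 tested probe sets with SE bars and a dotted line of equality. The 16 red probe sets are called in both lineages, 19 yellow ones in 1 lineage and 26 grey ones in neither, and Pdia5 lies furthest above the line, at 1.74 against 0.29.

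Several other values differed along with this comparison. Of the 11 genes with several probe sets, 5 had the same sign on all of them in the vinclozolin lineage and 7 in the control lineage, and in some the dimmer probe set differed most. In the control lineage Ssr3 differed by 1.87 on its dimmest probe set and by 0.07 and 0.07 on the others, and Sec61a1 by 1.41 on the dimmer and -0.23 on the brighter one. The beta-actin ratio was 2.35 and 2.26 on the vinclozolin epithelium arrays, 2.57 and 2.27 on the control epithelium arrays, 3.37 and 3.14 on the vinclozolin whole prostate arrays, and 3.74 and 3.98 on the control whole prostate arrays. Smooth muscle genes were also higher in epithelium. Of them, 9 of 11 probe sets of 9 genes were called in each lineage, and their summed intensity was 15792 to 15965 units on the vinclozolin epithelium arrays, 18052 to 18425 on the control epithelium arrays, 2349 to 2575 on the vinclozolin whole prostate arrays and 3028 to 3080 on the control whole prostate arrays. The part of RNA quality and of these cells in the differences was not tested. Leaving out 1 array of a comparison left its group with 1 array. Fewer probe sets were then called in that comparison, both on the list and over all probe sets.

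Under all 10 other settings, and without any 1 array, 9 probe sets stayed called in the vinclozolin lineage: those of Pdia4, Pdia5 and Txndc5, the brighter of Pdia3, the middle of Edem1, the dimmest of Ssr3 and the dimmer of Hyou1, Ssr1 and Sec61a1. In the control lineage 9 stayed called as well: Pdia4, Ddit3 and Txndc5, both of Hyou1, and the same probe sets of Pdia3, Edem1, Ssr3 and Sec61a1. The split of the calls shifted with the scaling. Median centring gave 11 higher and 11 lower in the vinclozolin lineage, where 34.2% of all probe sets were called, and 21 higher and 9 lower in the control lineage, where 35.8% were. The values as deposited gave 21 and 6 in the vinclozolin lineage (6291 of all 21729 called) and 30 and 2 in the control lineage (6517 of all called). Under median centring the median over all probe sets was -0.17 in the vinclozolin lineage and -0.20 in the control lineage, so that the list is read against those shifts. The median over the 45 genes was then -0.05 in the vinclozolin lineage and 0.11 in the control lineage, and on the values as deposited it was 0.34 in the control lineage.

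Other genes of the same pathways gave the setting of these changes. Lists of 135 further genes for folding, stress signalling, degradation, translocation, glycosylation and transport to the Golgi held 127 tested genes with 180 probe sets. In epithelium none was called, with 92 of 127 genes positive (median 0.07). In whole prostate 4 probe sets were called higher and 1 lower, with 84 of 127 genes positive (median 0.11). Dnajc10 (ERdj5), a reductase that prepares protein for degradation, rose in whole prostate on both of its probe sets, by 0.89 ± 0.15 (limma, adjusted p = 0.0427) and 0.74 ± 0.11 (adjusted p = 0.0294). Psat1, an enzyme of serine synthesis under ATF4, rose by 0.76 ± 0.10 (adjusted p = 0.0256), and Nupr1, a stress-induced nuclear protein, by 0.61 ± 0.10 (adjusted p = 0.0467). Further genes of low p that did not pass were Ostc (0.55 ± 0.11, adjusted p = 0.0669) and Alg2 (0.60 ± 0.13, adjusted p = 0.0755), both of glycosylation, and Os9 (0.51 ± 0.11, adjusted p = 0.0815), a lectin of degradation. The probe set called lower was the dimmer one of Sesn2, a stress-induced regulator of growth signalling (adjusted p = 0.0477). It read 1.0 and 6.6 units on the vinclozolin arrays, under the pseudocount, against 17.4 and 24.4 on the control arrays, so no size is given. The brighter Sesn2 probe set lay the other way, at 94.6 and 76.8 units on the vinclozolin arrays, against 54.3 and 38.4 on the control arrays (0.68 ± 0.16, adjusted p = 0.0931).

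RNA for proteins that this machinery exports differed in both directions in whole prostate. Of 16 tested genes for secretory products of the prostate, with 21 probe sets, 4 probe sets were called lower and 2 higher in the vinclozolin lineage. Msmb, an abundant secreted protein, read 2244 and 2302 units on the vinclozolin whole prostate arrays, against 5881 and 5575 on the control whole prostate arrays. It fell by 1.55 ± 0.11 on the log2 scale (limma, adjusted p = 0.00297). Azgp1 was called lower (adjusted p = 0.00297), with 18.5 and 12.9 units on the vinclozolin arrays, near the pseudocount, against 126.8 and 123.1 on the control arrays. Svs4 fell by 1.17 ± 0.12 (adjusted p = 0.0116) and Semg1 fell by 0.80 ± 0.12 (adjusted p = 0.0338), while Clu, the chaperone clusterin, rose by 1.00 ± 0.13 on the brighter of its probe sets (adjusted p = 0.0232). The dimmest of 4 Andpro probe sets was called higher (1.01 ± 0.11, adjusted p = 0.0128), while the 3 brighter ones were at 0.00, -0.04 and 0.04 and were not called. In epithelium none of them was called, with Clu at 1.21 ± 0.13 (adjusted p = 0.106) and Msmb at 0.70 ± 0.11 (adjusted p = 0.194).

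Markers of other cells differed in whole prostate beside the secretory machinery. Plasma cells carry much of this machinery, and their marker Jchain read 155 and 142 units on the vinclozolin whole prostate arrays, against 79.0 and 75.5 on the control whole prostate arrays (0.79 ± 0.20, limma, adjusted p = 0.108). Mzb1, another plasma cell gene, read 61.4 and 46.3 units on the vinclozolin arrays, against 8.9 and 17.8 on the control arrays (1.22 ± 0.30, adjusted p = 0.105). Over the 6 B and plasma cell genes tested, 5 were positive with none called, and their summed intensity was 395 to 462 units on the vinclozolin arrays, against 278 to 281 on the control arrays. For 11 macrophage genes the sum was 2123 to 2133 units on the vinclozolin arrays, against 1951 to 2107 on the control arrays. Of these genes 8 were positive and 3 negative, down to -0.58, with Csf1r (1.11 ± 0.15, adjusted p = 0.0261) and Fcgr3a (1.17 ± 0.19, adjusted p = 0.0404) called higher. For 7 T and NK cell genes the sum was 360 to 375 units on the vinclozolin arrays, against 190 to 213 on the control arrays, with none called. For 11 skeletal muscle genes it was 1656 to 1692 units on the vinclozolin arrays, against 3405 to 3662 on the control arrays, with 7 of 16 probe sets called lower. Luminal epithelial markers had a median change of -0.09 over 9 genes, with none called. On the epithelium arrays Jchain read 30.4 and 15.2 units in the vinclozolin lineage, against 15.3 and 7.9 in the control lineage, mostly under the pseudocount. Mzb1 read 2.9 and 14.9 units there in the vinclozolin lineage, against 25.8 and 10.3 in the control lineage. Of the 6 B and plasma cell genes, 3 were positive and 3 negative in epithelium. Their summed intensity was 475 to 503 units in the vinclozolin and 474 to 509 in the control lineage. The part of these cells in the values of the folding genes was not tested.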

How the data were processed

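The 8 Affymetrix arrays gave 1 table of intensity values per probe set, deposited by the authors on a linear scale and scaled to a common trimmed mean; per the labels' protocols, RNA was labelled with biotin by the manufacturer's procedure. The sources used here do not name the summarising software. From 31099 probe sets, 57 controls were left out. Intensities were turned into log2 (intensity + 16), since the deposited values reach 0, and then quantile normalised. Probe sets under the 30th percentile of mean level were removed, which left 21729. All 8 arrays entered 1 limma fit of group means (4 residual degrees of freedom, prior of 2.621), from which 5 comparisons were taken, each with Benjamini-Hochberg adjustment over all 21729. The number of arrays, 2 in a group, limits the precision.

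The members, roles and further lists were chosen with earlier results of these data known. A gene's change is that of its brightest probe set. Values on every array are given for genes with a called probe set in any comparison and, in each lineage comparison, for the 6 probe sets of lowest p in each direction, which gave 28 genes; the other 17 are given by range. The fit was tested on simulated data. Same-numbered arrays of different groups did not deviate together (correlations between -0.02 and 0.03), so replicate numbers pair nothing. Scaling, pseudocount, filter, variance prior, array weights, replicate block and left-out arrays were varied. Promoter windows are those of RefSeq, build GRCr8. R 4.3.3 with limma 3.58.1, and Python 3.11.15 with pandas 2.3.3 and matplotlib 3.10.9, were used.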

Additional observations from a re-analysis of the deposited data

Results flagged for a closer look

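None of the folding genes met a rule for a closer look. Among genes of the other lists, the lineage effect differed between tissues (limma, difference of effects, epithelium minus whole prostate) for 5 genes. Msmb, a secreted protein, had a difference of 2.25 (log2). Svs4 and Semg1, both of the seminal secretion, had differences of 1.75 and 1.36. Their arrays were higher in the vinclozolin lineage in epithelium and lower in whole prostate. Myl1 and Tnnc2, of skeletal muscle, had differences of 2.55 and 1.64. No explanation of these was tested.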

How the results depend on the processing

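Over 75 results for single named probe sets, 1114 values under other settings kept their side of the threshold, 24 gained a call, 209 lost it and none reversed. For the lineage effect in whole prostate, the 2 calls became 1 with median centring, a pseudocount of 1, no filter, the replicate block or the 4 arrays of the comparison alone, 6 with array weights, 8 with a filter at the 50th percentile, 9 with a pseudocount of 64 and 19 with a trended robust prior. Over all probe sets the share called was 4.01%, 6.22%, 5.21% and 8.35% under these last 4 settings, against 1.74%. Under the first 5, in the order given, it was 2.27%, 1.08%, 0.644%, 0.815% and 0.299%. The trended robust prior gave 4 calls among the 61 in epithelium and 5 for the difference of effects, against 0.943% and 2.49% of all probe sets. Between tissues it gave 38 in the vinclozolin lineage and 41 in the control lineage, against 33.7% and 33.9% of all. The difference of effects had 1 call with a pseudocount of 64 (1.21% of all called) or a filter at the 50th percentile (1.09% of all). The 4 arrays of the vinclozolin lineage alone gave 13 calls between tissues, where 18.1% of all probe sets were called. The replicate block, whose numbers share only a name, gave 0 calls in epithelium, on the list and over all probe sets. Between tissues it gave 20 in the vinclozolin lineage (24.9% of all called) and 22 in the control lineage (24.6% of all).

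Medians over the 45 genes on the values as deposited were 0.0698 in epithelium, 0.27 in whole prostate, -0.20 for the difference of effects and 0.34 between tissues in the control lineage. After median centring they were 0.0394, 0.22, -0.17 and 0.11 for the same comparisons and -0.0491 between tissues in the vinclozolin lineage. With the mean of all probe sets of a gene, the medians between tissues were 0.24 in the vinclozolin lineage and 0.35 in the control lineage.

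Leaving out 1 array at a time gave 0 to 1 calls in whole prostate, 11 to 23 between tissues in the vinclozolin lineage and 10 to 23 in the control lineage. The medians then ran between 0.10 and 0.12 in epithelium, 0.12 and 0.18 in whole prostate, -0.0645 and -0.0167 for the difference of effects, 0.15 and 0.18 between tissues in the vinclozolin lineage, and 0.14 and 0.21 in the control lineage. Where an arm held 1 array, it was assumed to vary like the other groups. The cause of these shifts was not tested. With 2 pools a group, probe sets whose mean intensity is near the pseudocount, such as the dimmer one of Atf6 (22.2 units), have compressed changes.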
